A study of Mus musculus with 13 samples.

Results

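The expression of 35 genes of glycolysis, glucose transport and the hypoxia response was examined in mature thymocytes that bear 1 T cell receptor (TCR), among 35906 genes paired with the deposited transcripts. The 35 genes are a written list: 2 glucose transporters, 9 genes of upper glycolysis, 2 enzymes that set fructose-2,6-bisphosphate, 7 genes of lower glycolysis, 2 lactate dehydrogenase subunits, 5 genes that govern the entry of pyruvate into mitochondria, 3 genes of the hypoxia pathway and 5 further hypoxia targets. All cells carried the Lm54 TCR transgene, specific for a peptide of listeriolysin O (LLO) on the MHC class II molecule I-Ab, on a Rag1-/- background that prevents other receptors from forming. They had been selected in CtslΔTEC mice, in which a Foxn1-driven Cre deletes the cathepsin L gene Ctsl in thymic epithelium, or in mice with Ctsl fl/fl alleles that the labels call WT. The thymocytes therefore kept their own Ctsl, and its level in them does not check the deletion. Sorted CD69-MHCI+ (M2) CD4 single-positive (CD4SP) thymocytes came from 5 CtslΔTEC and 4 WT mice without stimulation, and from 2 CtslΔTEC and 2 WT mice after 4 h with plate-bound LLO:I-Ab at 1 µg/ml and soluble anti-CD28 at 250 ng/ml. Each library was made from 1 mouse, and ages of these mice are not given in the labels.

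Glycolysis splits glucose into pyruvate, which is either reduced to lactate by lactate dehydrogenase or carried into mitochondria and oxidized by the pyruvate dehydrogenase complex. Pyruvate dehydrogenase kinases (PDKs) phosphorylate that complex and switch it off. The transcription factor HIF-1 drives many of these genes when its oxygen-sensitive subunit is spared by the prolyl hydroxylases, and activated T cells are known to raise glycolysis even when oxygen is present.

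The total of estimated counts lay between 25692380 and 39127833 per unstimulated mouse and between 8085463 and 27184520 per stimulated mouse. The stimulated comparison, which also had fewer mice, was the less precise, and the parts of depth and mouse number were not separated. Each of the 13 markers listed for M2 CD4SP cells was above 3 counts in every group, but their levels were not all equal between genotypes. At an adjusted p under 0.1, 5 were lower and 2 higher in CtslΔTEC cells without stimulation, where 8.36% of all genes were lower and 6.42% higher. After stimulation 5 were lower and 1 higher, where 10.6% of all genes were lower and 2.77% higher. Markers of double-positive (DP) thymocytes summed to 319.8 to 397.1 TPM, a level scaled for transcript length and library size, in unstimulated CtslΔTEC cells and to 67.4 to 104.7 TPM in unstimulated WT cells, with 7 of 9 tested markers higher and none lower, and no marker of the 10 was at 0 in all libraries of a group. Y-linked transcripts were present in all 5 unstimulated CtslΔTEC libraries but in 1 of 4 WT libraries (mouse 3), and in 1 of 2 libraries of each stimulated group. Sex, as read from these transcripts, and genotype can thus be told apart only in part without stimulation. Deposited names carried a first date for CtslΔTEC mice 1 and 3 and WT mouse 4, a later one for the other unstimulated mice and the latest for all stimulated mice, so stimulation and that date cannot be told apart. In these bulk libraries a smaller share of cells of a type and less RNA per cell cannot be told apart either.

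Without stimulation, CtslΔTEC cells had less RNA for 10 of the 18 enzymes from hexokinase to lactate dehydrogenase, with Tpi1 and Pgk1 among the 10, and for 3 hypoxia targets, and more for a single gene of the list, Pdk1. Of the 35 genes, all of which could be tested, 15 were lower and 1 was higher at an adjusted p under 0.1 (edgeR quasi-likelihood test, Benjamini-Hochberg adjustment over 13152 genes), where 8.36% of all genes were lower and 6.42% higher. The median log2 fold change over the list was -0.19, beside 0.0096 over all genes. The largest decreases outside genes at very low counts were those of Ndrg1, Ldha, Pfkfb4 and Pkm. The summed level of the 18 enzymes from hexokinase to lactate dehydrogenase was 2729 ± 113.9 TPM (SD, n = 5) in CtslΔTEC and 3288 ± 99.2 TPM (SD, n = 4) in WT cells, with ranges of 2556 to 2856 and 3162 to 3394 TPM that did not overlap.

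**Figure D1:**
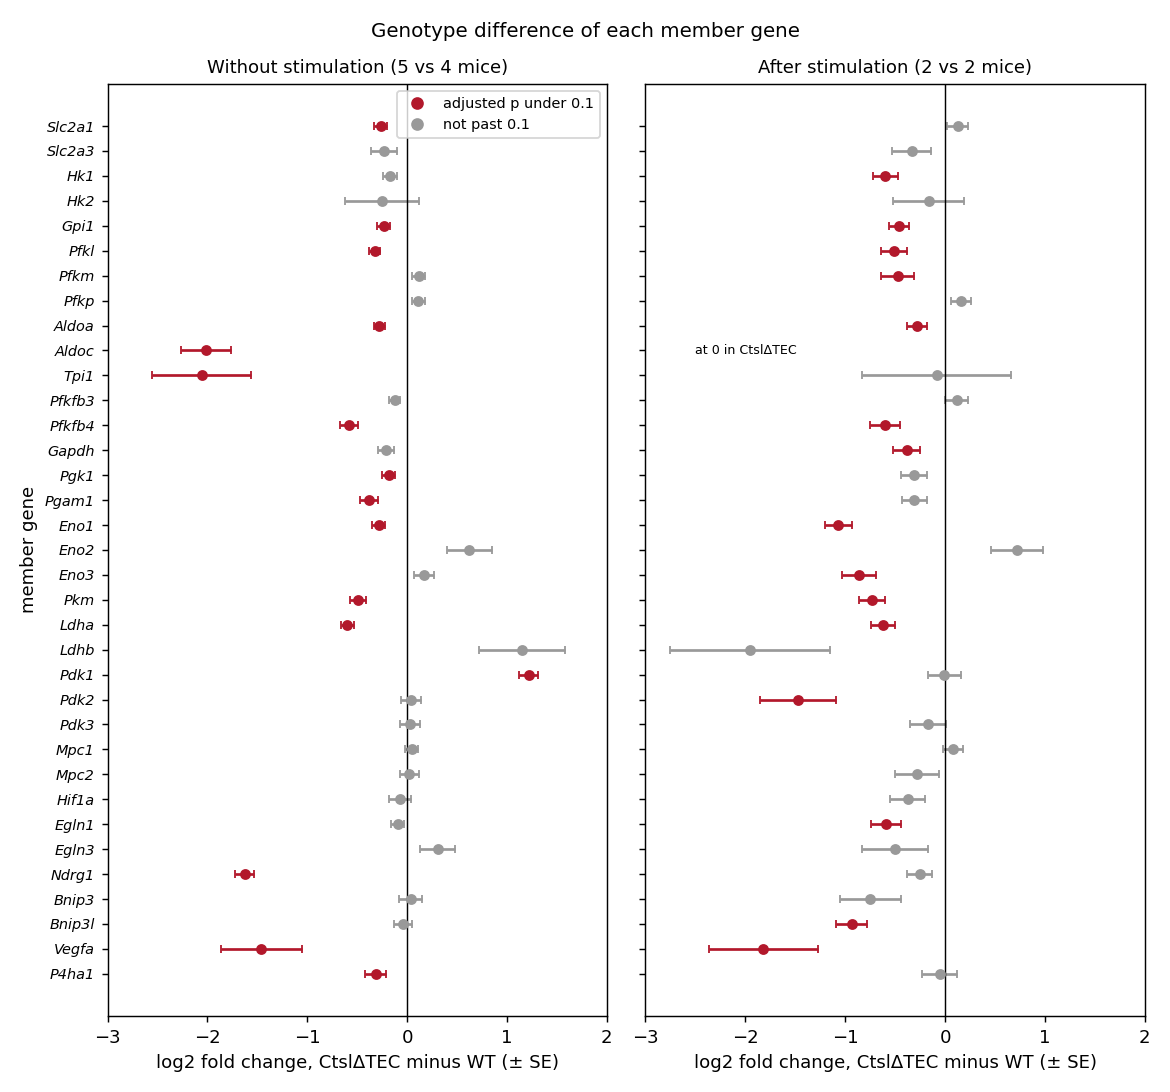
Log2 fold change of each of the 35 genes between CtslΔTEC and WT cells (points, with the standard error as bars), without stimulation on the left and after stimulation on the right. Red points passed an adjusted p of 0.1: 15 of the 16 on the left lie below 0 and Pdk1 alone lies above, and the red points on the right all lie below 0, while Aldoc is not drawn there because it had 0 counts in stimulated CtslΔTEC cells.

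Pdk1, the kinase that shuts off pyruvate dehydrogenase and a known HIF-1 target, was 2.32-fold higher in CtslΔTEC cells. Its gene lies on the plus strand at chr2:71873224-71903858 (GRCm38). In CPM, counts scaled by library size and TMM factors, the 5 CtslΔTEC libraries held 508, 679.9, 612, 657 and 661 and the 4 WT libraries 282, 303, 249 and 242. The lowest CtslΔTEC library was thus far above the highest WT library. The log2 fold change was 1.22 ± 0.10 (SE, adjusted p = 1.78e-05), and the two-sided exact permutation test over all splits of the 9 mice gave p = 0.00794, the smallest that it can give.

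The rise in Pdk1 was spread over its transcripts. The main protein-coding transcript, Pdk1-201, was at 108 ± 12.9 TPM (SD, n = 5) in CtslΔTEC and at 48.5 ± 3.31 TPM (SD, n = 4) in WT cells. The processed transcript Pdk1-208, which has no annotated open reading frame, was at 72.3 ± 6.63 and 26.2 ± 5.24 TPM. Transcripts without protein-coding annotation held 34.9% ± 2.49 (SD, n = 5) of Pdk1 counts in CtslΔTEC cells and 29.5% ± 2.99 (SD, n = 4) in WT cells. With protein-coding transcripts alone the log2 fold change of Pdk1 was 1.14.

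The other genes of pyruvate entry did not pass the test. Pdk2 and Pdk3, kinases of the same complex, had log2 fold changes of 0.041 ± 0.10 (SE, adjusted p = 0.859) and 0.027 ± 0.10 (SE, adjusted p = 0.911). Mpc1 and Mpc2, which form the mitochondrial pyruvate carrier, had values of 0.045 ± 0.063 (SE, adjusted p = 0.732) and 0.019 ± 0.10 (SE, adjusted p = 0.939). Per length and summed over all transcripts, Pdk1 was the most abundant of the 3 kinases, at 313 ± 34.9 TPM (SD, n = 5) in CtslΔTEC cells against 10.3 ± 1.12 for Pdk2 and 12.2 ± 1.51 for Pdk3.

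Lactate dehydrogenase A, which reduces pyruvate to lactate, went the opposite way. CtslΔTEC libraries held 379.9, 374, 436, 409 and 399 CPM of Ldha and WT libraries 584, 581, 592 and 669.8 CPM. Every CtslΔTEC library was below every WT library, and the log2 fold change was -0.60 ± 0.069 (SE, adjusted p = 0.000192). Ldhb, the subunit that favours the reverse reaction, was scarce, at 16.6 ± 6.36 TPM (SD, n = 5) against 421 ± 44 TPM for Ldha in CtslΔTEC cells, and its difference of 1.15 ± 0.43 (SE, adjusted p = 0.125) did not pass.

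Promoter sequences of RefSeq (GRCm38.p6) were at hand for 32 of the 35 genes, and for each the 250 bases before the start nearest to its most counted transcript were searched on both strands for the HIF core motifs ACGTG and GCGTG and for the E-box CACGTG, a motif of Myc and related factors. ACGTG lies within CACGTG, so each E-box also holds it on both strands. ACGTG was found in 15 of the 32 windows (46.9%) and in 16.6% of all 32851 promoter windows of the same length, GCGTG in 19 (59.4%) and 28.2%, and CACGTG in 4 (12.5%) and 6.02%. Slc2a3, Ndrg1 and Bnip3l had no sequence. The windows of Pdk1 and Ldha are shown because these genes moved in opposite directions, and that of Hk2 because it rose most after stimulation, with all 3 motifs in capitals.
Pdk1 (chr2:71872974-71873223, plus strand): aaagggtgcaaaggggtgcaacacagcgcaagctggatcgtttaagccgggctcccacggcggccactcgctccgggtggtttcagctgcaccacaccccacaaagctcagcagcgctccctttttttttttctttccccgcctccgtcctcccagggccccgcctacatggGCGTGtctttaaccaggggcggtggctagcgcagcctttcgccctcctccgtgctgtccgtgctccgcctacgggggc
Ldha (chr7:46845554-46845803, plus strand): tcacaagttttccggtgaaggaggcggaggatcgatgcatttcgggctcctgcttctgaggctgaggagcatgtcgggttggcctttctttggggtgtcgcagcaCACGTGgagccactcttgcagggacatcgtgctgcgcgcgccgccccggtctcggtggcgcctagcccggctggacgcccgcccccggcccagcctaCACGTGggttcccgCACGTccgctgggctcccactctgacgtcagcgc
Hk2 (chr6:82774455-82774704, minus strand): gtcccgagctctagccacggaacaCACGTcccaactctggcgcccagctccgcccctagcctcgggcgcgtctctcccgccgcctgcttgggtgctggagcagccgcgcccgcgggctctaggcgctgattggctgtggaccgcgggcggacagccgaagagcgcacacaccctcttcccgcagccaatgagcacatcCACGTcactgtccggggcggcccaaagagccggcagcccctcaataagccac
The Ldha window held 2 E-boxes and 5 occurrences of ACGTG, counted on both strands. The Pdk1 window held 1 GCGTG and neither of the other motifs, and the Hk2 window held 2 occurrences of ACGTG. A match of these letters is a description of the window and no evidence of binding.

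Among glucose transporters, Slc2a1, the basal transporter GLUT1, was slightly lower, with 34, 31.2, 35.7, 34 and 35 CPM in CtslΔTEC and 40.4, 41.2, 44 and 38.4 CPM in WT libraries. The groups did not overlap and the log2 fold change was -0.27 ± 0.068 (SE, adjusted p = 0.0288). Slc2a3, the high-affinity transporter GLUT3, overlapped between genotypes and did not pass, at -0.23 ± 0.13 (SE, adjusted p = 0.313). Per length the pair were similar in WT cells, at 19 ± 1.61 and 22.2 ± 1.54 TPM (SD, n = 4).

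In upper glycolysis 5 of 9 genes were lower and none was higher. Pfkl, the liver-type phosphofructokinase that commits sugar to glycolysis, was at 64.9, 62.3, 60.8, 67.7 and 66.8 CPM in CtslΔTEC and 81.5, 75.1, 83.1 and 84.8 CPM in WT libraries, a log2 fold change of -0.33 ± 0.058 (SE, adjusted p = 0.00379). Aldoa, the main aldolase, was at 229, 221, 217, 230.3 and 243 CPM against 273, 285, 269 and 284 CPM, a log2 fold change of -0.28 ± 0.056 (SE, adjusted p = 0.00723). Both genes were lower in every CtslΔTEC library than in any WT library. Gpi1, which converts glucose 6-phosphate to fructose 6-phosphate, had 259 to 291 CPM in CtslΔTEC and 302 to 350.5 CPM in WT cells, also without overlap (-0.23 ± 0.065 SE, adjusted p = 0.0411).

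Aldoc, the brain-type aldolase, was barely expressed, with 18, 24, 14, 17 and 17 counts in CtslΔTEC and 92, 69, 35 and 74 counts in WT libraries. Its log2 fold change of -2.02 ± 0.25 (SE, adjusted p = 0.000335) came from levels of 0.522 ± 0.173 TPM (SD, n = 5) and 1.67 ± 0.536 TPM (SD, n = 4). Aldoa, at 301 ± 5.97 TPM in WT cells, carried nearly all aldolase RNA. Hk1, which traps glucose as its 6-phosphate, Pfkm and Pfkp, the muscle and platelet phosphofructokinases, and Hk2, the inducible hexokinase, did not pass, with log2 fold changes of -0.17, 0.11, 0.11 and -0.25 and adjusted p values of 0.143, 0.34, 0.337 and 0.75. Pfkp, the most abundant phosphofructokinase at 72.3 ± 7.91 TPM in WT cells, was thus among the genes that did not pass.

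Tpi1, triosephosphate isomerase, was listed at 0.82 to 9.86 TPM over the 13 libraries, with 76, 77, 37 and 289 counts in unstimulated WT cells. Every cell that uses glycolysis needs this enzyme, and Gapdh, the next in the path, stood at 501 ± 48.7 TPM (SD, n = 4) in the same cells, so the listed value may not measure the gene. Tpi1 was among the 15 lower genes with a log2 fold change of -2.06 ± 0.50 (SE, adjusted p = 0.0213), and its value without WT mouse 4 was -1.28. Leaving it aside, 14 genes were lower. Transcripts without protein-coding annotation also took a large part of other genes, on average 28.5% of Gpi1 and 39.5% of Pfkp counts in unstimulated WT cells and 33.9% and 46.4% in CtslΔTEC cells.

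Of the enzymes that set fructose-2,6-bisphosphate, the activator of phosphofructokinase, Pfkfb4 was lower and Pfkfb3 did not pass. Pfkfb4 was at 11.1, 10.4, 12.2, 11.3 and 9.76 CPM in CtslΔTEC and 16.4, 15.4, 18.2 and 15.8 CPM in WT libraries, a log2 fold change of -0.58 ± 0.091 (SE, adjusted p = 0.00167) with no overlap. Pfkfb3 did not overlap between the groups either, at 51.1 to 54.8 and 56.1 to 59.6 CPM, but its difference was small (-0.12 ± 0.053 SE, adjusted p = 0.177).

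In lower glycolysis 4 of 7 genes were lower: Pkm, Eno1, Pgam1 and Pgk1. Pkm, which makes pyruvate, was at 778, 648, 637, 678 and 712 CPM in CtslΔTEC and 971, 940.1, 904 and 1093 CPM in WT libraries (-0.49 ± 0.08 SE, adjusted p = 0.00197). Eno1, the common enolase, was at 678, 716, 630.5, 678 and 697 CPM against 802, 899, 793 and 834 CPM (-0.29 ± 0.063 SE, adjusted p = 0.0124). Neither gene overlapped between genotypes. Pgam1, the phosphoglycerate mutase, was at 45.8, 53.3, 60.3, 62.3 and 54.3 CPM against 74, 76.9, 68.4 and 68.9 CPM (-0.38 ± 0.086 SE, adjusted p = 0.0149), its groups being close but apart.

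Pgk1, one of the ATP-forming kinases of the path, was at 134 to 143 CPM in CtslΔTEC and 147 to 177 CPM in WT cells, a difference at the threshold (-0.19 ± 0.064 SE, adjusted p = 0.0966) that 8 of the 9 fits without 1 unstimulated mouse placed at adjusted p values of 0.104 to 0.26. Gapdh, the dehydrogenase that makes NADH, and the minor enolases Eno3 and Eno2 did not pass, at -0.21 ± 0.083 (SE, adjusted p = 0.141), 0.17 ± 0.10 (SE, adjusted p = 0.329) and 0.62 ± 0.23 (SE, adjusted p = 0.117). Pseudogene copies of Gapdh that share all its 31-base words took at most 2.87% of its counts each. Enolase RNA was nearly all Eno1, at 629.9 ± 22.7 TPM in WT cells against 25.1 ± 5.41 for Eno3 and 1.35 ± 0.378 for Eno2 (SD, n = 4).

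Pkm is spliced to carry either exon 9, giving the PKM1 enzyme, or exon 10, giving PKM2, a form that can be held in a less active state. Both exons are 167 bases long and lie on the plus strand of chromosome 9 in GRCm38. They are shown because the reads that tell the forms apart come in part from them, with capitals at the positions where they differ, which leaves 103 identical bases (61.7%).
PKM1 exon 9 (chr9:59675029-59675195): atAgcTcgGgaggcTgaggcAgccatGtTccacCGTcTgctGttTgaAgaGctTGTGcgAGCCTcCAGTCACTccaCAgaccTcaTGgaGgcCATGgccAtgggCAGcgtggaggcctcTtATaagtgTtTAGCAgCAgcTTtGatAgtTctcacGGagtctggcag
PKM2 exon 10 (chr9:59675568-59675734): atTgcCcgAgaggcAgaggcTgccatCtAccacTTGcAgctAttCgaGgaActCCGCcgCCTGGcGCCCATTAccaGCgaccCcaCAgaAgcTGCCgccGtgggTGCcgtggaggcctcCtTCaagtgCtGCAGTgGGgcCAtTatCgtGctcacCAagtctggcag
The files hold 1 transcript with exon 9 and 1 with exon 10, and these also differ at their ends. The PKM2 transcript was at 498.3 to 579 TPM in WT libraries and at 337.5 to 432 TPM in CtslΔTEC libraries, whereas the PKM1 transcript was at 11.9 to 22.5 and 16.2 to 22.3 TPM. PKM1 made up 4.73% ± 0.58 of the pair (SD, n = 5) in CtslΔTEC and 3.23% ± 0.716 (SD, n = 4) in WT cells. The ranges, 4.23% to 5.70% and 2.32% to 4.03%, did not overlap (exact permutation p = 0.00794, two-sided, the smallest possible).

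**Figure D2:**
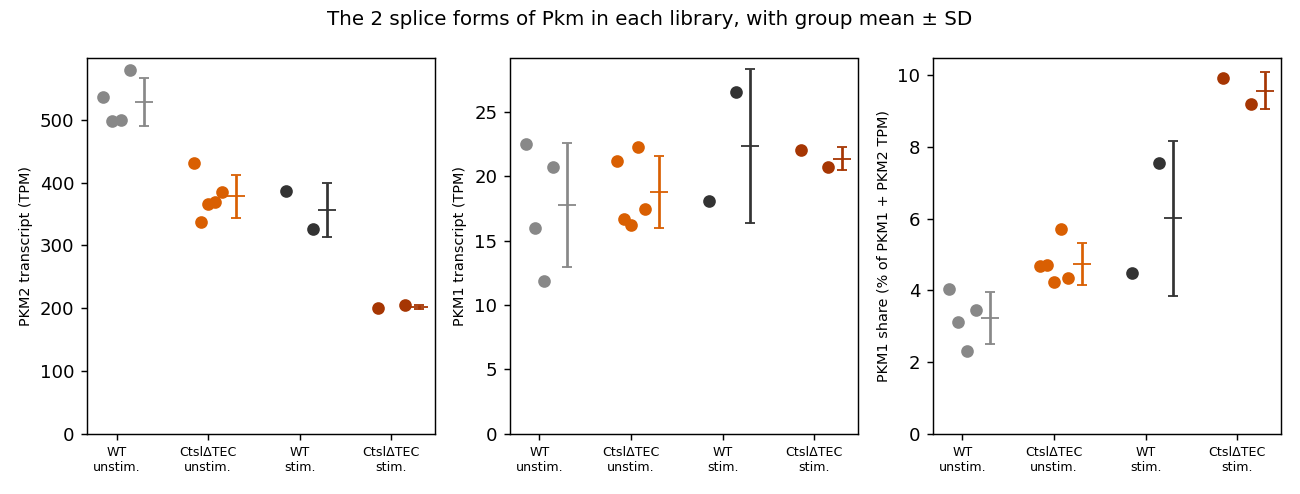
TPM of the PKM2 and PKM1 transcripts of Pkm and the PKM1 share of their sum, in each of the 13 libraries (points) with the group mean and SD (bars). The PKM2 transcript is lower in CtslΔTEC than in WT libraries in both conditions, the PKM1 transcript overlaps between unstimulated groups, and the PKM1 share is highest in the stimulated CtslΔTEC libraries, at 9.20% and 9.93%.

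Among the hypoxia genes, the targets Ndrg1, Vegfa and P4ha1 were lower, while the regulators did not pass. Ndrg1, a stress-responsive gene that HIF-1 and other factors induce, showed the smallest p of the whole list. CtslΔTEC libraries held 17.6, 18.4, 24.2, 21.6 and 20.8 CPM and WT libraries 58.9, 66.1, 67.4 and 61.6 CPM, a 3.09-fold difference with no overlap (-1.63 ± 0.10 SE, adjusted p = 1.2e-06). Vegfa, the vascular growth factor, was near the detection limit, at 17, 9, 16, 17 and 8 counts in CtslΔTEC and 61, 21, 14 and 46 counts in WT libraries, and overlapped (-1.46 ± 0.41 SE, adjusted p = 0.041). P4ha1, a collagen prolyl hydroxylase subunit, also overlapped, at 43.1 to 56.6 and 52.1 to 76.1 CPM (-0.32 ± 0.11 SE, adjusted p = 0.0889). The Vegfa call was lost without WT mouse 1 (log2 fold change -1.11, adjusted p = 0.137), the Gpi1 call without WT mouse 2 (-0.22, adjusted p = 0.11), and the P4ha1 call in 7 of the 9 fits that left out an unstimulated mouse, with adjusted p values of 0.122 to 0.232. The log2 fold change of P4ha1 was -0.21 without WT mouse 1 and -0.27 to -0.34 in the other 6 of these fits.

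Hif1a, the oxygen-regulated subunit of HIF-1, had a log2 fold change of -0.074 ± 0.11 (SE, adjusted p = 0.753). Egln1 and Egln3, prolyl hydroxylases that mark it for destruction, were at -0.10 ± 0.069 (SE, adjusted p = 0.446) and 0.31 ± 0.17 (SE, adjusted p = 0.325). The mitophagy receptors Bnip3 and Bnip3l, both HIF-1 targets, were at 0.035 ± 0.11 (SE, adjusted p = 0.899) and -0.045 ± 0.089 (SE, adjusted p = 0.822). All of these 5 genes overlapped between genotypes.

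Of the 16 genes called, 13 had no overlap between the 9 mice, and Tpi1, Vegfa and P4ha1 did. Over all genes the groups did not overlap for 13.9% of those tested and for 77.9% of those called. With the level of Y-linked transcripts as a covariate, 5 genes passed: Pdk1 (1.31), Ndrg1 (-1.72), Ldha (-0.56), Pfkfb4 (-0.74) and Aldoc (-1.33 on the log2 scale), where calls over all genes went from 14.8% to 3.26%. The other 11 had log2 fold changes from -0.54 for Tpi1 to -0.071 for Pgk1 in that fit, with Pkm at -0.37, Pfkl at -0.36, Eno1 at -0.22 and Aldoa at -0.23. With the percentage of reads assigned to retained-intron transcripts as a covariate, which was 5.6% to 6.6% in CtslΔTEC and 5.1% to 5.8% in WT cells, 7 passed, namely these 5 with Pfkl and Pkm, where 5.25% of all genes did. The other 9 had log2 fold changes from -1.71 for Tpi1 to -0.13 for Pgk1 in that fit, with Vegfa at -1.04, Eno1 at -0.31, Aldoa at -0.26, Slc2a1 at -0.23, P4ha1 at -0.23, Gpi1 at -0.23 and Pgam1 at -0.22. WT mouse 3, the Y-positive control, was the lowest WT library for 10 of the 15 lower genes and lay within the CtslΔTEC range for Tpi1, Vegfa and P4ha1, while its Ndrg1 level was the highest of the WT libraries and its Pdk1 level lay among theirs. Within the second date, with 3 mice per genotype, 14 genes passed, where 14.7% of all genes did. The summed DP markers, given above, moved with genotype as well, and their part in these differences was not tested.

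After 4 h of stimulation, CtslΔTEC cells again had lower levels of many of these genes, and Pdk1 no longer differed measurably. In the comparison of 2 against 2 mice, 16 of the 35 genes were lower and none higher, where 10.6% of 14241 genes tested were lower and 2.77% higher. The median log2 fold change of the list was -0.39, beside -0.055 over all genes. Different mice were used in each condition, and 9 genes were lower in both, which is 60% of the 15 without and 56.2% of the 16 after stimulation: Gpi1, Pfkl, Aldoa, Aldoc, Pfkfb4, Eno1, Pkm, Ldha and Vegfa. Over all genes, 39.5% of those lower without and 28.9% of those lower after stimulation were lower in both. The summed level of the 18 glycolytic enzymes was 2850 and 3069 TPM in CtslΔTEC and 3776 and 4089 TPM in WT libraries. With 2 mice per group an exact permutation test cannot reach 0.05, and the p values rest on a spread estimated across all 13 libraries. Summed DP markers were at 86.9 to 88.8 TPM in stimulated CtslΔTEC and 42.5 to 45.3 TPM in stimulated WT cells, and their part was not tested.

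Eno1 had the smallest p. The CtslΔTEC libraries held 98.4 and 97.3 CPM and the WT libraries 241 and 173 CPM, a 2.1-fold difference (-1.07 ± 0.13 SE, adjusted p = 0.000267). Eno3, the muscle enolase, was lower too, at 6.35 and 6.91 against 13.2 and 11.4 CPM (-0.86 ± 0.17 SE, adjusted p = 0.00511). Eno2, the neuronal enolase, lay on the other side, at 25.6 and 23.5 against 13.2 and 16.6 CPM, a difference just short of the threshold (0.72 ± 0.26 SE, adjusted p = 0.109).

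Pkm was at 434 and 438 CPM in CtslΔTEC and 805 and 651 CPM in WT cells (-0.73 ± 0.13 SE, adjusted p = 0.00311). Ldha was at 600.4 and 564 against 1008 and 792 CPM (-0.62 ± 0.12 SE, adjusted p = 0.00576). For both genes the CtslΔTEC libraries lay below the WT libraries. PKM1 made up 9.20% and 9.93% of the Pkm pair in CtslΔTEC and 4.48% and 7.54% in WT libraries, again with a lower PKM2 transcript (200.1 and 205 against 386 and 326 TPM).

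In upper glycolysis 6 of 9 genes were lower. Hk1 was at 73.7 and 61.2 CPM in CtslΔTEC and 89.6 and 115 CPM in WT cells (-0.60 ± 0.13 SE, adjusted p = 0.0094). Gpi1 was at 205 and 214 against 302 and 279 CPM (-0.46 ± 0.10 SE, adjusted p = 0.00932), and Pfkl at 34.3 and 38.4 against 59.9 and 45.3 CPM (-0.51 ± 0.13 SE, adjusted p = 0.0204). These 3 enzymes act before the sugar is cleaved. Pfkm (-0.48 ± 0.17 SE, adjusted p = 0.096) and Aldoa (-0.28 ± 0.10 SE, adjusted p = 0.0906) were close to the threshold, as was Gapdh of lower glycolysis (-0.39 ± 0.14 SE, adjusted p = 0.0975). Aldoc had 0 counts in both CtslΔTEC libraries and 3 and 13 in the WT libraries, which is at least 1.97-fold lower against a limit of 3 counts per library. Pfkfb4 was at 8.91 and 8.44 against 12.3 and 14.1 CPM (-0.60 ± 0.15 SE, adjusted p = 0.0228).

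Of the remaining 4 genes, Bnip3l showed the smallest p, at 25 and 22.3 CPM in CtslΔTEC and 51 and 40.3 CPM in WT cells (-0.93 ± 0.15 SE, adjusted p = 0.0019). Egln1 was at 22 and 30.8 against 44 and 37.1 CPM (-0.59 ± 0.15 SE, adjusted p = 0.0222), and Pdk2, with 5 and 16 counts against 24 and 41, had a log2 fold change of -1.47 ± 0.38 (SE, adjusted p = 0.0244). Vegfa had 53 and 48 counts against 150 and 207 (-1.82 ± 0.54 SE, adjusted p = 0.0508). All 4 were lower in both CtslΔTEC libraries than in either WT library. With so few libraries such separation, here as for Pkm and Ldha, is weak evidence, and its share over all genes was not computed.

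Pdk1 was at 32.8 and 38.9 CPM in stimulated CtslΔTEC and 40.7 and 32.6 CPM in stimulated WT cells, and these overlapped (-0.0062 ± 0.16 SE, adjusted p = 0.994). Ndrg1 was at 433 and 446 against 516 and 541 CPM, which did not overlap but did not pass (-0.26 ± 0.13 SE, adjusted p = 0.252). The other genes that did not pass had log2 fold changes from -1.95 for Ldhb, at 8 and 16 counts in the CtslΔTEC libraries, to 0.72 for Eno2. Pgk1 and Pgam1 were at -0.31 and -0.31, Slc2a1 at 0.13 and Slc2a3 at -0.33.

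Several of these calls rested on single libraries. Without WT mouse 5, the shallowest library, 9 genes passed, and without CtslΔTEC mouse 6, 10 passed, where calls over all genes went from 13.3% to 6.43% and 6.31%. Pfkl, Pdk2 and Egln1 were lost in both cases, with log2 fold changes of -0.31, -1.05 and -0.48 without WT mouse 5 and -0.43, -1.08 and -0.38 without CtslΔTEC mouse 6. Vegfa was lost without WT mouse 5 (-1.06), CtslΔTEC mouse 6 (-2.17) or CtslΔTEC mouse 7 (-1.53), and Pfkfb4 without CtslΔTEC mouse 7 (-0.58) or WT mouse 6 (-0.50). Without CtslΔTEC mouse 7 the Pdk2 value was -2.24. Pfkm lost its call in 12 of the 13 fits without 1 library, stimulated or not, Aldoa in 10 and Gapdh in 8, with adjusted p values of 0.101 to 0.501. Pfkm ranged from -0.25 without CtslΔTEC mouse 6 to -0.81 without CtslΔTEC mouse 7, Aldoa reached -0.16 without WT mouse 5, and Gapdh reached -0.26 without CtslΔTEC mouse 7. Retained-intron transcripts took 7.9% and 8.5% of counts in CtslΔTEC and 6.0% and 7.6% in WT libraries, and with this share as a covariate 7 genes passed, Hk1, Pfkm, Aldoc, Eno1, Eno3, Pkm and Bnip3l, where calls over all genes went from 13.3% to 5.31%. Among those lost, Ldha was at -0.33, Gpi1 at -0.41 and Pfkl at -0.36 on the log2 scale. When the 4 stimulated libraries were fitted alone, where 9.58% of 11763 genes passed, Pfkl, Pfkm, Aldoa, Pfkfb4, Gapdh, Pdk2 and Egln1 lost their calls, with log2 fold changes of -0.46, -0.43, -0.23, -0.55, -0.33, -1.49 and -0.54 and adjusted p values of 0.104 to 0.478, Aldoc could not be tested, and Eno2 (0.76) and Ldhb (-1.91) passed.

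Stimulation changed 28 of the 35 genes in WT and 34 in CtslΔTEC cells, where 67.7% and 71.2% of all genes changed. Of the 35 genes, 14 rose and 14 fell in WT cells, where 32.9% of all genes rose and 34.8% fell, and 15 rose and 19 fell in CtslΔTEC cells, where 32.9% rose and 38.2% fell. All 8 activation markers rose in both. Between the stimulated genotypes 1 of the 8 was lower in CtslΔTEC cells and 0 were higher, with 5 log2 fold changes above 0 and 3 below. Il2 was at 4.18 and 7.79 TPM in CtslΔTEC and at 71.1 and 72.95 TPM in WT libraries. The same 14 genes rose and the same 14 fell in both genotypes. The share of all genes that did so in both was not computed, so this overlap is a description only. The 14 that rose span glucose uptake (Slc2a1), priming and splitting of the sugar (Hk2, Pfkp, Pfkfb3, Aldoa), the middle of the path (Gapdh, Pgk1, Pgam1, Eno2), lactate formation (Ldha), pyruvate import (Mpc1) and hypoxia genes (Hif1a, Ndrg1, Vegfa). Much of the Pfkp rise lay in transcripts without protein-coding annotation. These held 62.1% of its counts in stimulated WT and 68.7% in stimulated CtslΔTEC cells. The retained-intron transcript Pfkp-212 rose from 7.58 to 24 TPM in WT and from 10.3 to 29.7 TPM in CtslΔTEC cells. The protein-coding Pfkp-201 went from 27.7 to 33.2 and from 27.9 to 33.7 TPM, and Pfkp-207 from 14.7 to 17.15 and from 14.1 to 13.3 TPM. The stimulated cells were also cultured and carried another date, which cannot be told apart from the stimulus.

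**Figure D3:**
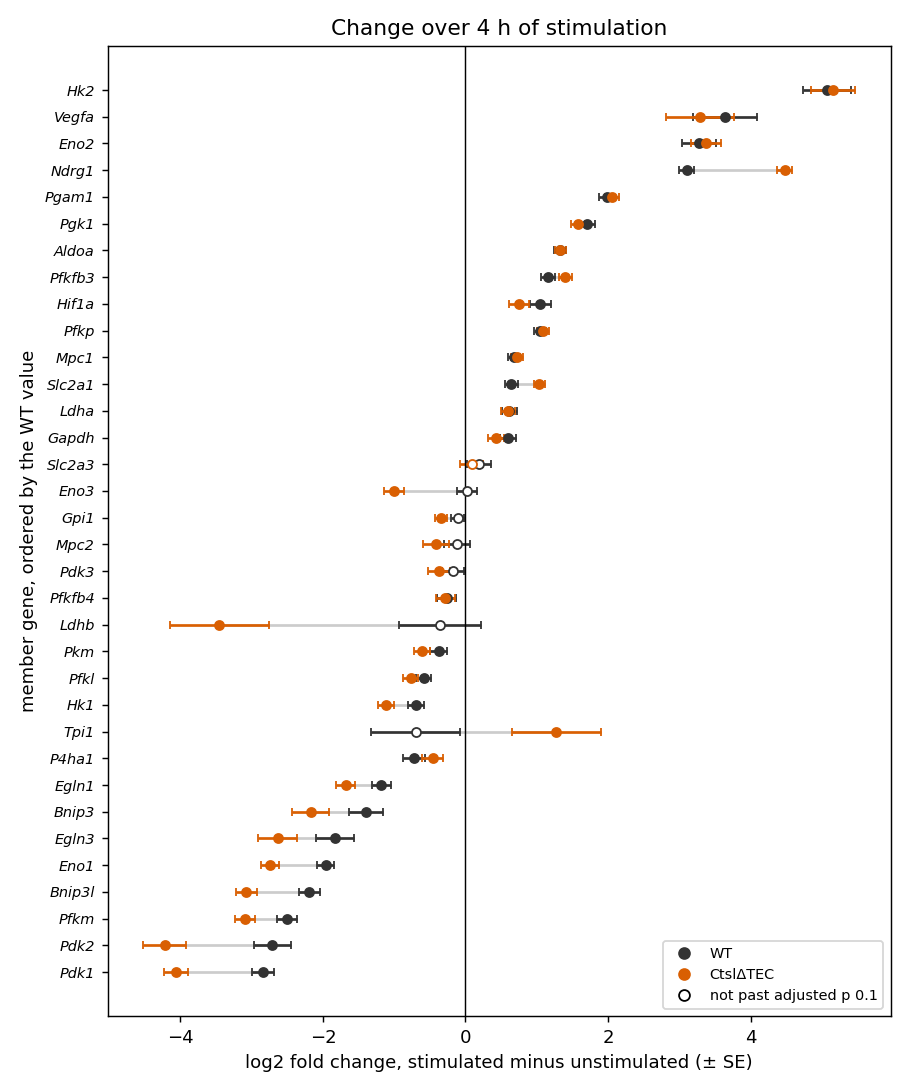
Log2 fold change of 34 of the 35 genes over 4 h of stimulation in WT (black) and CtslΔTEC cells (orange), with the standard error as bars and open points where the adjusted p was not under 0.1. Hk2 rose most in both genotypes and Pdk1 fell most in WT cells, and Aldoc, at 0 counts in stimulated CtslΔTEC cells, is left out.

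Hk2 showed the largest rise. It was at 0.676 to 0.968 CPM in unstimulated and 30.1 and 22.3 CPM in stimulated WT cells, and at 0.323 to 1.32 CPM and 21 and 25.1 CPM in CtslΔTEC cells, log2 fold changes of 5.07 ± 0.33 (SE, adjusted p = 5.17e-09) and 5.15 ± 0.31 (SE, adjusted p = 1.29e-09). Its main transcript, Hk2-201, rose from 0.149 to 5.95 TPM in WT and from 0.116 to 5.33 TPM in CtslΔTEC cells, so even then Hk1 exceeded it, at 37.3 ± 9.27 and 24.6 ± 2.58 TPM (SD, n = 2). Vegfa and Eno2 rose from very low levels, by log2 fold changes of 3.64 ± 0.45 (SE, adjusted p = 4.74e-06) and 3.28 ± 0.23 (SE, adjusted p = 1.14e-08) in WT and of 3.29 ± 0.48 (SE, adjusted p = 1.96e-05) and 3.37 ± 0.21 (SE, adjusted p = 1.74e-09) in CtslΔTEC cells. Hk2 and Eno2 were the scarce genes of their families before stimulation.

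Ndrg1 rose from between 58.9 and 67.4 to 516 and 541 CPM in WT cells and from between 17.6 and 24.2 to 433 and 446 CPM in CtslΔTEC cells. The respective log2 fold changes were 3.10 ± 0.11 (SE, adjusted p = 7.86e-12) and 4.48 ± 0.10 (SE, adjusted p = 1.42e-13). Pgam1 rose 3.94-fold and 4.15-fold, Pgk1 3.26-fold and 2.99-fold, and Aldoa 2.51-fold and 2.52-fold, in WT and CtslΔTEC cells respectively. Ldha rose less, by 1.53-fold and 1.51-fold, from a high level. Slc2a3 did not pass in either genotype (0.18 and 0.086 on the log2 scale).

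The deepest falls in WT cells were those of Pdk1, Pdk2, Pfkm and Bnip3l. Pdk1 fell from between 242 and 303 to 40.7 and 32.6 CPM in WT cells and from between 508 and 679.9 to 32.8 and 38.9 CPM in CtslΔTEC cells, with log2 fold changes of -2.84 ± 0.16 (SE, adjusted p = 8.42e-10) and -4.06 ± 0.17 (SE, adjusted p = 2.33e-11). Pdk2 fell by 6.54-fold and 18.6-fold, and Pfkm by 5.67-fold and 8.52-fold. Pdk3, the other kinase, had log2 fold changes of -0.18 and -0.37, of which the second passed. Bnip3l fell by 4.56-fold and 8.42-fold and Eno1 by 3.9-fold and 6.69-fold. Eno1 thus fell, as did Pkm, the next enzyme in the path, while Pgam1, the one before it, rose. At 149 ± 21.8 TPM in stimulated WT cells (SD, n = 2) Eno1 was still the most abundant enolase.

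Egln1, Egln3, Bnip3, Hk1, Pkm, Pfkl, P4ha1, Pfkfb4 and Aldoc also fell in both genotypes, with log2 fold changes from -2.16 for Aldoc to -0.26 for Pfkfb4 in WT cells. Ldhb fell by 3.45 on the log2 scale in CtslΔTEC cells. Hif1a rose 2.07-fold and 1.69-fold while Egln1 and Egln3, the hydroxylases on the list, fell. Aldoc in stimulated CtslΔTEC cells was at least 2.35-fold lower than in unstimulated ones. Gpi1, Eno3, Ldhb, Pdk3 and Mpc2 fell and Tpi1 rose at the threshold in CtslΔTEC cells and did not pass in WT cells, and for Gpi1, Pdk3, Mpc2 and Tpi1 the difference between genotypes in the response did not pass (adjusted p = 0.377, 0.734, 0.65 and 0.281). With the retained-intron covariate 26 genes passed in CtslΔTEC cells, 14 higher and 12 lower, where 52.3% of all genes did, and Pdk3 and Mpc2 turned direction, to 0.026 and 0.10. In WT cells the Pkm call was lost without WT mouse 6 (log2 fold change -0.24), and the Pfkfb4 call without stimulated WT mouse 5 (-0.20), unstimulated WT mouse 3 (-0.22) or unstimulated CtslΔTEC mouse 4 (-0.26). In CtslΔTEC cells Tpi1 and Pfkfb4 lost their calls in 6 and 5 of the 13 fits, including those without either stimulated CtslΔTEC mouse (1.21 and 1.30, and -0.33 and -0.27), Gapdh and Pdk3 without mouse 6 (0.26 and -0.29), Pdk3 also without unstimulated mouse 2 (-0.31) and Mpc2 without mouse 7 (-0.23).

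**Figure D4:**
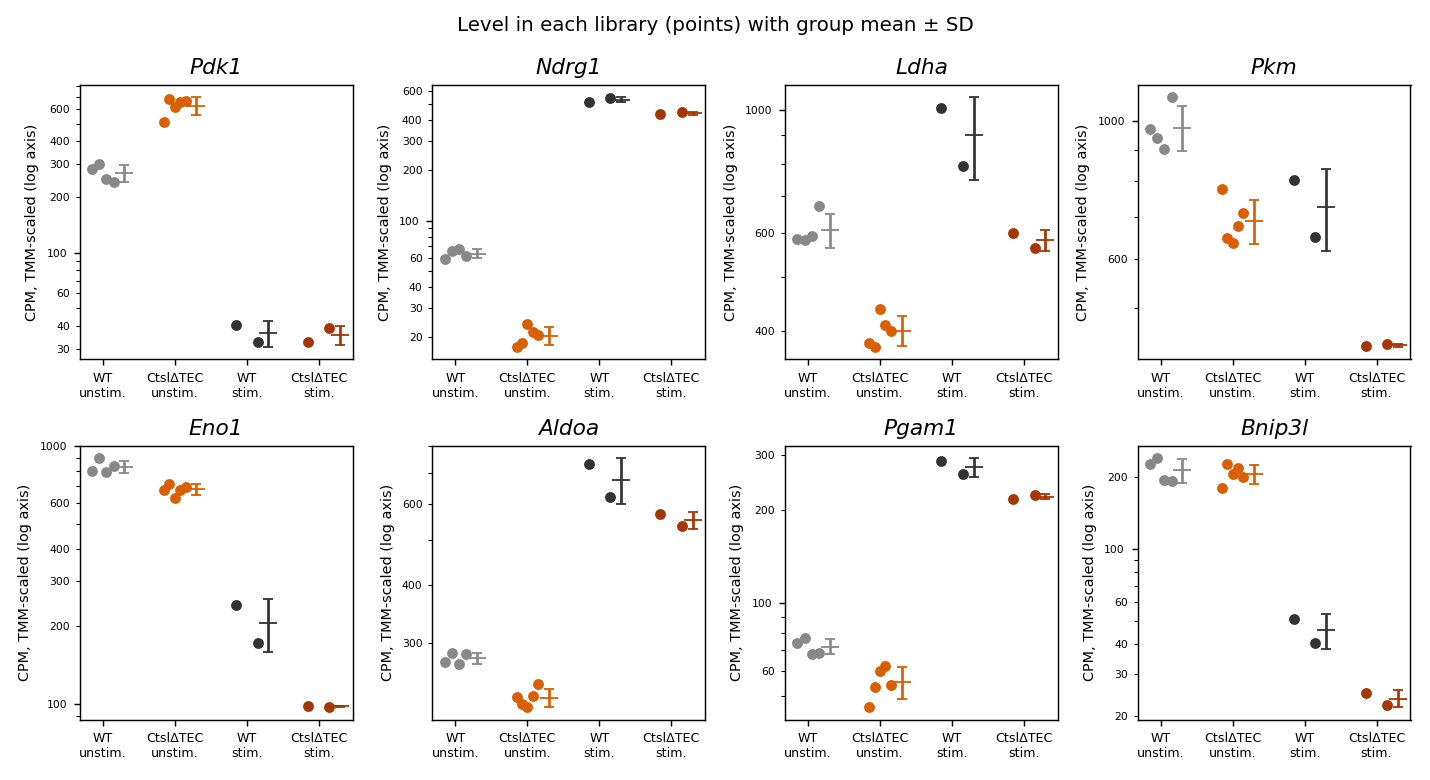
CPM after TMM scaling, on a log axis, of 8 genes in each of the 13 libraries (points), with the group mean and SD (bars). Pdk1 is higher and Ndrg1, Ldha, Pkm, Eno1, Aldoa and Pgam1 are lower in unstimulated CtslΔTEC than in unstimulated WT libraries, whereas Bnip3l separates by genotype after stimulation and overlaps before it.

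The response to stimulation differed between genotypes for 7 of the 35 genes, 6 with a more negative and 1 with a more positive response in CtslΔTEC cells, where 4.88% and 1.13% of all genes did so. Ndrg1 rose 22.3-fold in CtslΔTEC and 8.6-fold in WT cells, from the lower starting level to ends that did not pass the test, an interaction of 1.38 ± 0.15 (SE, adjusted p = 0.000856) on the log2 scale. Pdk1 fell 16.7-fold and 7.16-fold, from the higher starting level to overlapping ends (-1.22 ± 0.19 SE, adjusted p = 0.00489). For these 2 genes the genotype difference was thus larger before than after stimulation.

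Eno1, Eno3 and Bnip3l went the other way, with a difference that was larger after stimulation. Eno1 had genotype differences of -0.29 before and -1.07 after stimulation, and an interaction of -0.78 ± 0.16 (SE, adjusted p = 0.0176). Bnip3l had -0.045 and -0.93 (-0.89 ± 0.18 SE, adjusted p = 0.0178), and Eno3 0.17 and -0.86 (-1.03 ± 0.20 SE, adjusted p = 0.014). Pdk2 (-1.51 ± 0.41 SE, adjusted p = 0.0583) and Ldhb (-3.10 ± 0.89 SE, adjusted p = 0.0746) rested on 5 and 16 and on 8 and 16 counts in the stimulated CtslΔTEC libraries. Their calls were lost without unstimulated CtslΔTEC mouse 3 (-1.45 and -2.80), stimulated CtslΔTEC mouse 6 (-1.12 and -2.90) or stimulated WT mouse 5 (-1.09 and -2.81), that of Ldhb also without unstimulated CtslΔTEC mouse 4 (-3.07), unstimulated WT mouse 3 (-2.94) or stimulated CtslΔTEC mouse 7 (-3.40), and Pdk2 was at -2.28 without the last. For Ldha, Pkm and Aldoa the interaction did not pass, at -0.019 ± 0.15, -0.23 ± 0.15 and 0.0014 ± 0.12 (SE).

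Over the 3 comparisons that involve genotype, 24 of the 35 genes passed at least once, where 22.9% of all genes did. The 11 that never passed were Slc2a3, Hk2, Pfkp, Pfkfb3, Eno2, Pdk3, Mpc1, Mpc2, Hif1a, Egln3 and Bnip3. Their mean levels in unstimulated WT cells ran from 0.786 TPM for Hk2 to 72.3 TPM for Pfkp.

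Further genes of the same pathways were followed as written lists, whose counts can be read against the 6.42% of all genes that were higher and 8.36% lower without stimulation and the 2.77% higher and 10.6% lower after it. Among 8 tested genes of lactate export and glucose sensing, 1 was lower without and 2 after stimulation. The first, the lactate exporter Slc16a3, differed by -1.87 ± 0.24 (SE, adjusted p = 0.000418) and -1.10 ± 0.26 (SE, adjusted p = 0.0176), and Emb, a chaperone of such exporters, by -0.60 ± 0.12 (SE, adjusted p = 0.00673) after stimulation. None of 11 tested genes listed for the pyruvate dehydrogenase complex passed in either genotype comparison by edgeR, and 1 of them had an unadjusted p under 0.05 in each. That list also holds regulators of the complex and the separate enzymes Pcx and Me2.

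Of 8 genes of the pentose phosphate pathway, the branch that yields NADPH and ribose, 1 was higher and 1 lower without stimulation, and 5 were lower and none higher after it. H6pd, the dehydrogenase of the endoplasmic reticulum, was the higher one (0.34 ± 0.074 SE, adjusted p = 0.0116), and Taldo1, the transaldolase, the lower (-0.26 ± 0.063 SE, adjusted p = 0.0207). After stimulation G6pdx, the entry enzyme, was lower (-0.73 ± 0.15 SE, adjusted p = 0.00814), as was Taldo1 (-0.62 ± 0.14 SE, adjusted p = 0.0131). Among 13 tested further isoenzymes and side steps of glycolysis, 3 were higher and 5 lower without stimulation, and 4 were lower after it. Minpp1 (-0.47 ± 0.069 SE, adjusted p = 0.00111) and Tigar (-0.44 ± 0.08 SE, adjusted p = 0.00423), which lowers fructose-2,6-bisphosphate, had the smallest p without stimulation, and Pgm1 (-0.70 ± 0.12 SE, adjusted p = 0.00193), a phosphoglucomutase, and Slc2a8 (-2.13 ± 0.38 SE, adjusted p = 0.00319), an intracellular glucose transporter, after it.

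Of 29 and 30 tested further hypoxia genes, 2 were higher and 5 lower without stimulation, and 3 were higher and 5 lower after it. P4ha2, the sister of P4ha1, had the smallest p without stimulation (-1.16 ± 0.17 SE, adjusted p = 0.00128), followed by the hypoxia marker Ankrd37 (-0.87 ± 0.15 SE, adjusted p = 0.00262). After stimulation these were Gys1, a glycogen synthase (-0.87 ± 0.14 SE, adjusted p = 0.00125), and, on the higher side, the histone demethylase Kdm3a (0.60 ± 0.12 SE, adjusted p = 0.0071).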

How the data were processed

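RNA-seq of sorted M2 CD4SP thymocytes from 13 mice was analysed. The authors quantified transcripts with kallisto 0.48, and the deposited files give estimated counts, which are not normalized, with TPM values and effective lengths (another measure of each transcript, deposited beside them). Estimated counts were summed to genes through GENCODE M21 (GRCm38), rounded and tested in R 4.3.3 with edgeR 4.0.16 (quasi-likelihood, TMM, filterByExpr, Benjamini-Hochberg adjustment over all genes tested, threshold 0.1). Of 117497 transcripts, 1100 had no gene and held at most 0.461% of counts. Unstimulated libraries were fitted alone and the other contrasts in a 4-group model. Single genes were compared without stimulation by an exact permutation test on log2 CPM (prior count 2). In simulated data for 14241 genes, 200 of which were changed 2-fold, 195, 160 and 130 were recovered for the genotype without stimulation, after it and for the interaction. False calls in these 3 runs numbered 21, 19 and 5. The labels call the RNA polyadenylated and the controls Ctsl fl/fl, which the study's methods describe as rRNA-depleted and Ctsl+/+. Members and lists were chosen with earlier results of these data known. Full values were given for up to 12 genes per genotype comparison with the smallest p, and responses for the largest changes per direction. A limit of 3 counts per library stood for 0 and covers counting error only. Alternatives comprised DESeq2 1.42.0, other scalings, filters and covariates, and fits without each mouse. DNA sequences are RefSeq promoters (GRCm38.p6) and GENCODE transcripts, and no protein sequence was used.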

Additional observations from a re-analysis of the deposited data

Results flagged for a closer look

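In unstimulated WT cells, Ldha stood out in mouse 4, at 9.39 log2 CPM against 9.18 to 9.21 in the other 3 mice, a gap of 0.868 of the range of the group. This was 1 flag among 70 groups of 4 or 5 mice examined, where chance gives about 1 in 20. Every CtslΔTEC library was lower than all 4 of these.

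The effect of genotype differed between unstimulated and stimulated cells, by the interaction of the 4-group model, for Eno1 (-0.78), Eno3 (-1.03), Ldhb (-3.10), Pdk1 (-1.22), Pdk2 (-1.51), Bnip3l (-0.89) and Ndrg1 (1.38 on the log2 scale). Ndrg1 was the only one of these genes with a positive value. Eno1, Pdk1, Bnip3l and Ndrg1 passed in all 24 alternatives run for each, Eno3 in 23 of 24, Pdk2 in 18 of 23 and Ldhb in 14 of 23.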

How the results depend on the processing

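In unstimulated cells the number of genes called was 16 and moved beyond 1.5 times only with the Y-linked covariate (5) and the retained-intron covariate (7). After stimulation it was 16 and became 7 with the retained-intron covariate and 10 when the 4 stimulated libraries were fitted alone. Leaving out 1 mouse gave 14 to 18 genes without stimulation, 9 to 18 after it, 5 to 10 for the interaction, 27 to 29 for the response in WT and 30 to 34 in CtslΔTEC cells, where calls over all genes ranged from 11.4% to 18.1%, 6.31% to 14.9%, 2.23% to 8.16%, 55.5% to 69.2% and 59.7% to 71.9%. DESeq2 called 19, 17, 8, 27 and 33 genes in these 5 comparisons. Over all genes it called 2299 of 13152 and then 2076, 1050, 9476 and 9960 of 14241. The main edgeR fits called 1943, 1898, 856, 9637 and 10138 of the same genes. The replicate block, with mouse number as a factor, called 11 genes without stimulation, where calls over all genes went from 14.8% to 7.99%. Deviations of same-numbered mice correlated at -0.157, 0.352, -0.098 and -0.142, so the numbers do not pair the mice. In the response of CtslΔTEC cells, Pdk3 and Mpc2 changed sign with the retained-intron covariate, to 0.026 and 0.10 on the log2 scale. The causes were not tested. Library totals alone moved the median of all genes in that response from -0.064 to -0.21. Over all genes, the share of calls that were higher without stimulation was 43.4% and became 56.8% with library totals alone and 28.2% with the Y-linked covariate. After stimulation it was 20.8% and became 36.6% with 10 counts in every library, and for the interaction 18.8%, which became 29.4% with DESeq2, 29.3% with 10 counts in every library, and 30.2% and 29.1% without unstimulated CtslΔTEC mouse 3 or 2. Pdk1, Ndrg1, Ldha, Pfkfb4 and Aldoc kept their calls without stimulation in all 24 alternatives each. The depth of 8085463 counts in the shallowest library and the 2 mice per group limit what the stimulated comparison shows.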
